A study of Rattus norvegicus with 12 samples.

Results

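The annexin family was examined in 6 rat cell lines or cultures measured on 12 single-colour Affymetrix arrays, 2 arrays per line. The members were the 8 genes Anxa1, Anxa2, Anxa3, Anxa4, Anxa5, Anxa6, Anxa7 and Anxa11, taken as the probe sets whose only symbol in the platform's gene table was 1 of these names. They had 14 probe sets, out of 20832 that carried a single symbol, and were 8 of 14218 genes. Where a gene had several probe sets, the one with the highest mean over the 12 arrays stood for it. The family was picked because the leading probe set of Anxa3 was low in the arrays labelled iPS and high in all others, so this contrast is described below without a test.

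Annexins are cytosolic proteins that bind acidic phospholipids, above all phosphatidylserine, when calcium rises. A conserved core of repeats holds the calcium and membrane sites, and a variable N-terminal tail sets the partners of each member, many of them small EF-hand proteins of the S100 family. They take part in membrane repair, vesicle traffic and the link between membrane and cortical actin, and are known as abundant proteins of fibroblasts and epithelia.

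The arrays labelled iPS held the lines A2 and A1, induced pluripotent stem cells of FHH rats obtained with a transposon system. The arrays labelled ES held the embryonic stem cell lines DAC8 and DAC2, with no strain in the labels, and those labelled EF held REF2 and REF1, FHH fibroblast cultures from e14.5 embryos. RNA was collected 5 days after passage from the iPS and ES lines and 6 days after passage from the fibroblasts. Per the labels, iPS and ES cells were in 2i medium and positive for SSEA-1 and Sox2, while fibroblasts were in MEF medium. The iPS lines were kept on mitomycin C-treated mouse embryonic fibroblasts in medium with leukemia inhibitory factor, and neither the removal of these feeders nor the number of founding clones is stated. The labels do not tell whether both arrays of a line had their own culture, so p-values here reflect array-to-array spread that could be purely technical.

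Levels are log2 signals, and array medians lay between 5.28 and 5.41. A level under 5 was not shown to be above background. Some lines went against their labels. The mean level of 8 fibroblast markers was 11.72 in DAC8 against 4.32 in DAC2, and 4.13 in REF2 against 11.96 in REF1. That of 6 epithelial markers was 4.02 in DAC8 against 9.63 in DAC2, and 10.27 in REF2 against 3.93 in REF1. The mean of 6 pluripotency markers was 5.73 in DAC8 against 10.92 in DAC2, and 10.84 in REF2 against 5.48 in REF1. For 8 neural markers the iPS lines A2 and A1 both stood at 10.75, against 5.34 in DAC8, 4.17 in DAC2, 4.35 in REF2 and 5.26 in REF1. A2 and A1 stood at 3.63 and 3.73 for the epithelial markers and at 5.81 and 6.05 for the pluripotency markers. The near-equal pluripotency means of the iPS lines, DAC8 and REF1 hide unlike members. Sall4 stood at 8.25 in A2 and 8.22 in A1 and Tdh at 7.71 and 7.99, both under 5 in DAC8 and REF1. Klf2 by its leading probe set went the other way, at 3.64 in A2 and 4.22 in A1 against 10.36 in DAC8 and 9.81 in REF1, as did Klf4. The next brightest Klf2 probe set was nearly flat, at 8.05 in A2, 7.93 in A1, 8.14 in DAC8 and 8.17 in REF1. A dimmer one followed the leading probe set, at 2.45, 2.43, 7.76 and 7.20, and the remaining ones were nearly flat. Esrrb and Tfcp2l1 were under 5 in all of these lines. No array was moved to another group. The results are therefore given line by line, and DAC8 and REF1 are called the lines with a fibroblast profile, DAC2 and REF2 the lines with an epithelial and pluripotent profile. A2 and A1 had a neural profile by these markers. They are called the iPS lines after their label only.

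Sequence is shown for 4 promoters, 1 from each pattern of levels and a second from the pattern with most members: Anxa3, the gene lowest in the iPS lines, Anxa1 and Anxa2, high where fibroblast genes are high, and Anxa11, high where epithelial genes are high. Each line gives the 250 bases before the gene start in RefSeq's table for GRCr8, 5′ to 3′ on the strand of the gene. Of the 8 members 7 were in that table. Capitals mark the TATA box (TATAAA), the GC box (GGGCGG), the AP-1 site (TGANTCA) and the CCAAT box (CCAAT), searched on both strands.
Anxa3 (chr14:13085598-13085847, minus strand): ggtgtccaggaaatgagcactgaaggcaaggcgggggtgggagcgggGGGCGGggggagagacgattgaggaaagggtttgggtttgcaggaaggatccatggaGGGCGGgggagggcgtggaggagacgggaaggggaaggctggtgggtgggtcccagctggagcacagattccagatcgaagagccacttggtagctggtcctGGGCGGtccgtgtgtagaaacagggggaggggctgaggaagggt
Anxa1 (chr1:227303733-227303982, minus strand): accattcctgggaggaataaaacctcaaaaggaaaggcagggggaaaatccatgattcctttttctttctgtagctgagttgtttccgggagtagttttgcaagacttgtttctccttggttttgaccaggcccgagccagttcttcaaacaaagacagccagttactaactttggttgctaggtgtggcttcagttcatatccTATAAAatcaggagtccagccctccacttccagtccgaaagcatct
Anxa2 (chr8:78986002-78986251, plus strand): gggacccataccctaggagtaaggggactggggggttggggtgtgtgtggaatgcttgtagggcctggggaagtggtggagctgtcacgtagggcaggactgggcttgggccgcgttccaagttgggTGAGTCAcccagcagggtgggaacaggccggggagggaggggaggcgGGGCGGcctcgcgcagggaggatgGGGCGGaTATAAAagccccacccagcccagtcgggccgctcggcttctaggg
Anxa11 (chr16:1419484-1419733, plus strand): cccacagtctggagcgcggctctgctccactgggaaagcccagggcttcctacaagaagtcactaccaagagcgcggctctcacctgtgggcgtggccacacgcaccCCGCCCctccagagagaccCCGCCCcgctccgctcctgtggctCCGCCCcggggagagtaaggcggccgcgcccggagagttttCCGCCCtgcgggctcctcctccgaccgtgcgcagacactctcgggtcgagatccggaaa

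The TATA box letters stood in 2 of the 7 annexin promoters, 46 bases before the start of Anxa1 and 45 bases before that of Anxa2, and in 12.9% of 33469 promoters of the same length. The GC box letters stood in 5 of the 7, with 4 copies before Anxa11, 3 before Anxa3, 2 before Anxa2 and 1 each before Anxa4 and Anxa5, and in 30.5% of all promoters. The Anxa2 promoter also held the only AP-1 letters, 123 bases before the start, which 6.34% of promoters carry. CCAAT stood in the promoters of Anxa4 and Anxa7 and in 34.0% of all promoters, and no matches of different motifs overlapped in these 7. The Anxa1 window held 45.2% G or C and 3 CG pairs, against 69.2% and 24 pairs for Anxa11 and a median of 51.2% and 5 pairs over all promoters. These are matches of letters and not shown binding sites.

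**Figure D1:**
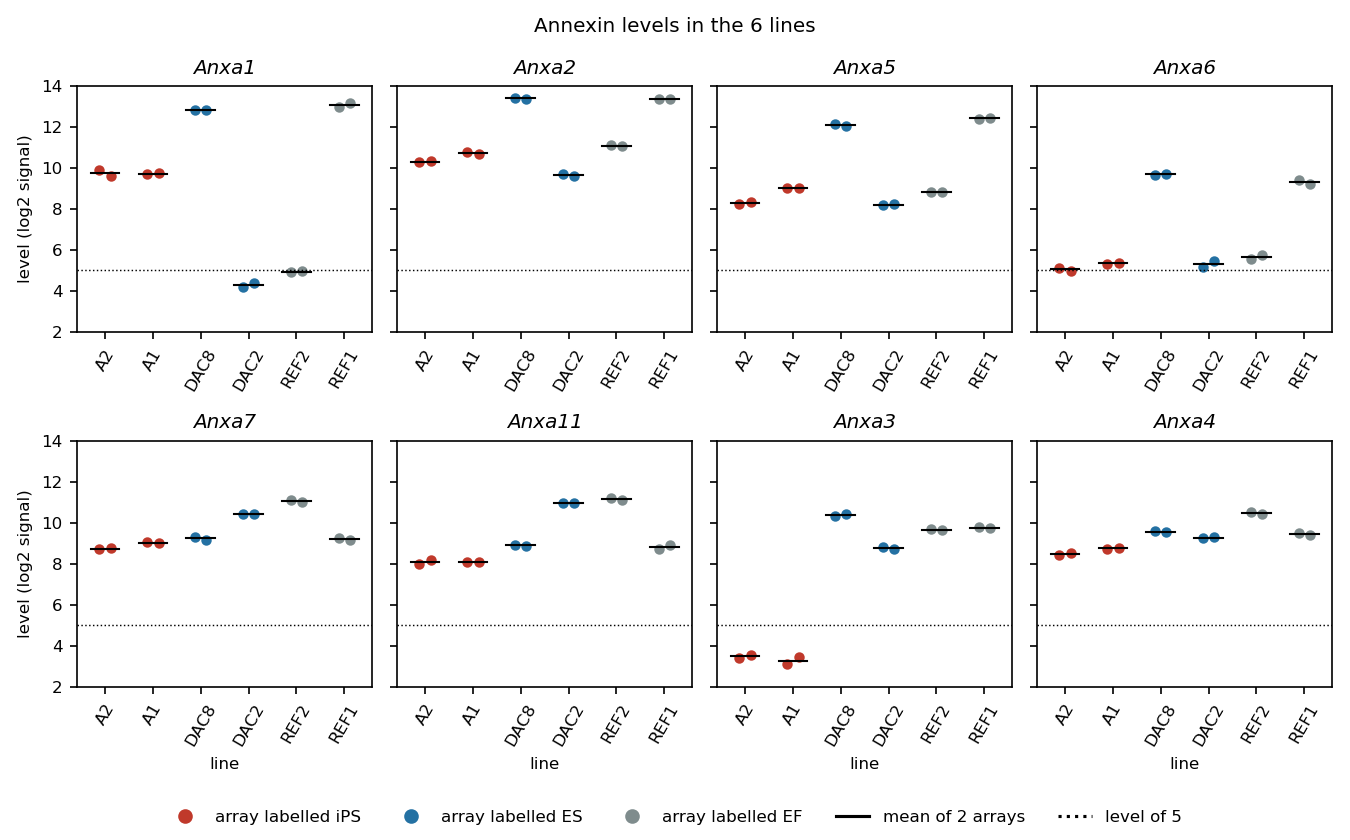
Level of each annexin (log2 signal, y axis) in the 6 lines (x axis), with a point for each array and a bar for the mean of the 2 arrays. Anxa1, Anxa2, Anxa5 and Anxa6 are highest in DAC8 and REF1, Anxa7 and Anxa11 in REF2 and DAC2, and Anxa3, by its leading probe set, lies below the dotted level of 5 only in A2 and A1.

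Anxa3, described mostly as an annexin of neutrophil granules and of secretory cells, set the iPS lines apart. It measured 3.39 and 3.56 in A2 and 3.10 and 3.43 in A1, against 10.31 and 10.44 in DAC8, 8.79 and 8.72 in DAC2, 9.67 and 9.62 in REF2 and 9.78 and 9.73 in REF1. The highest iPS array, at 3.56, lay far below the lowest of the other 8 arrays, at 8.72, and all 4 iPS arrays were under the level taken as background. The iPS mean was lower than DAC8 by at least 41.4-fold, than DAC2 by at least 13.5-fold, than REF2 by at least 25.1-fold and than REF1 by at least 27.0-fold, each computed against a level of 5. In bulk RNA, fewer cells with the transcript and less transcript per cell cannot be told apart, here and below.

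The other 3 probe sets of Anxa3 were dimmer and gave smaller gaps in the same direction. In the second brightest the iPS arrays reached at most 5.12, against at least 6.06 in the others, and 3 of the 4 iPS arrays were above 5 there. In the dimmest they reached at most 3.10, against at least 4.70. In the remaining one they reached at most 4.85, against at least 5.21. The iPS arrays of these last 2 were all under 5, so the sizes of their gaps are not measured. In the dimmest the DAC2 arrays, at 4.72 and 4.70, were under 5 as well, so it measures no difference between the iPS lines and DAC2. No array of the other lines overlapped the iPS arrays in any of the 4 probe sets.

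**Figure D2:**
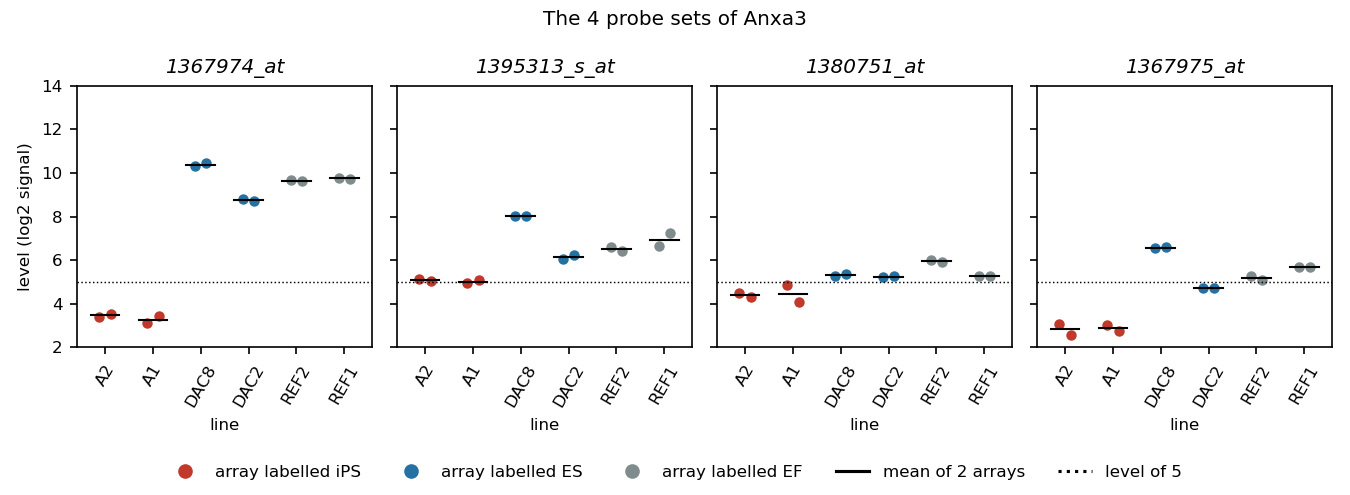
Level (log2 signal, y axis) of the 4 probe sets of Anxa3 in the 6 lines (x axis), with a point for each array and a bar for the mean of the 2 arrays. In each probe set the A2 and A1 arrays are the lowest 4 of 12, and the gap is widest in the first panel, the brightest probe set.

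Among the lines that have Anxa3, its level was uneven, and these differences did not enter the choice of the family. DAC8 was higher than DAC2 by 1.62 ± 0.10 (log2 difference ± SE, limma adjusted p = 3.61e-07), about 3.07-fold. REF2 stood -0.11 ± 0.10 from REF1 (limma adjusted p = 0.37), which the test did not separate. DAC2 was lower than REF2 by 0.89 log2 units (difference -0.89 ± 0.10, limma adjusted p = 0.000188) and stood -0.999 ± 0.10 from REF1 (limma adjusted p = 1.23e-05), just short of the 1 log2 unit used below. DAC8 exceeded REF1 by 0.62 ± 0.10 (limma adjusted p = 0.0041), under 2-fold. By the leading probe set its order was thus DAC8, then REF1 and REF2, then DAC2. The DAC8 and REF1 arrays, at 9.73 or more, all lay above the REF2 and DAC2 arrays, at 9.67 or less, but REF1 and REF2 were not separated by the test. The other probe sets were not tested. The second brightest and the dimmest had the same order of means, with DAC2 under 5 in the dimmest. In the second brightest DAC8 exceeded REF1 by 1.09 log2 units, past 2-fold. The remaining one, close to 5, had another order. There REF2 was highest at 5.96, above REF1 by 0.68, and DAC8 exceeded DAC2 by only 0.08, in log2 units.

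A change between lines was called at a limma adjusted p under 0.05 and at least 1 log2 unit, that is 2-fold. Within the ES label, DAC8 minus DAC2, 7 of 8 annexins were called, 5 higher and 2 lower. Over all 11001 genes tested, 40.2% were called, 20.4% higher and 19.8% lower. The median annexin difference was 2.67, against -0.18 over all genes. Within the EF label, REF2 minus REF1, 7 of 8 were called, 3 higher and 4 lower, where 40.3% of all genes were called, 20.7% higher and 19.6% lower. The median annexin difference there was -1.19, against 0.15 over all genes. These comparisons share no array. Of the 8 members 7 differed in opposite directions in them, as did 89.0% of all genes, and 6 were called in both in opposite directions, as were 33.4% of all genes.

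**Figure D3:**
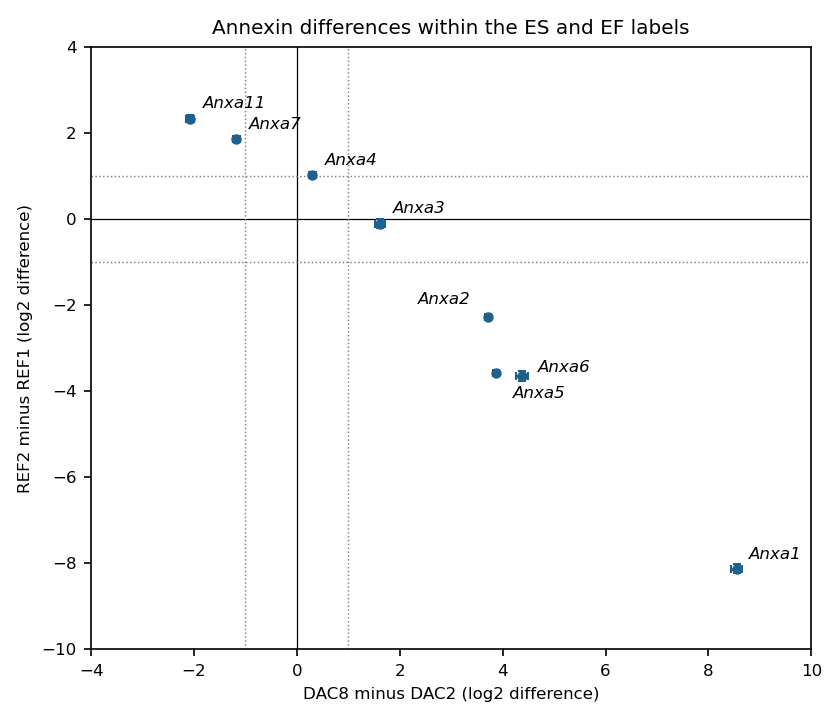
Difference of each annexin within the ES label (DAC8 minus DAC2, x axis) and within the EF label (REF2 minus REF1, y axis), both in log2 units. Points are fitted differences, bars are ± 1 SE, and dotted lines mark 1 log2 unit. Anxa1, Anxa2, Anxa5 and Anxa6 lie at the lower right, Anxa7 and Anxa11 at the upper left, and Anxa3 and Anxa4 pass 1 log2 unit on a single axis each.

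The members high in the lines with a fibroblast profile were Anxa1, Anxa2, Anxa5 and Anxa6. Anxa1, a glucocorticoid-induced protein whose released form acts on formyl peptide receptors, measured 9.92 and 9.63 in A2, 9.70 and 9.75 in A1, 12.85 and 12.85 in DAC8, 4.21 and 4.39 in DAC2, 4.91 and 4.97 in REF2 and 12.99 and 13.17 in REF1. The 3 tiers did not overlap: DAC8 and REF1 on top, the iPS lines between, and DAC2 and REF2 at background. DAC8 was at least 230.1-fold higher than DAC2 (limma adjusted p = 1.1e-11), and REF2 at least 270.4-fold lower than REF1 (limma adjusted p = 2.04e-11), both against a level of 5. DAC8 and REF1 differed by -0.23 ± 0.10 (limma adjusted p = 0.154), which the test did not separate.

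Anxa2, which forms a tetramer with S100a10 and binds plasminogen and actin-rich membranes, measured 10.29 and 10.32 in A2, 10.77 and 10.69 in A1, 13.43 and 13.35 in DAC8, 9.72 and 9.63 in DAC2, 11.11 and 11.07 in REF2 and 13.37 and 13.35 in REF1. Every line held it well above background. DAC8 was higher than DAC2 by 3.72 ± 0.06 (limma adjusted p = 4.53e-11), 13.2-fold, and REF2 stood at -2.27 ± 0.06 from REF1 (limma adjusted p = 7.43e-10). DAC2 and REF2 were not alike for this gene, with DAC2 at -1.42 ± 0.06 from REF2 (limma adjusted p = 7.07e-07). With the gene's probe sets averaged, Anxa2, DAC2 minus REF2, stood at -0.97, short of the call. The second probe set was dim, at 3.52 to 5.67, and under 5 in all DAC2 and REF2 arrays, so it measures no difference between them.

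Anxa5, the phosphatidylserine-binding protein used to stain dying cells, measured 8.23 and 8.33 in A2, 9.02 and 9.01 in A1, 12.13 and 12.06 in DAC8, 8.18 and 8.25 in DAC2, 8.82 and 8.85 in REF2 and 12.40 and 12.45 in REF1. DAC8 and REF1 formed an upper tier, and the other 4 lines lay within about 1 log2 unit of each other. DAC8 was higher than DAC2 by 3.88 ± 0.06 (limma adjusted p = 3.02e-11) and REF2 stood at -3.59 ± 0.06 from REF1 (limma adjusted p = 4.66e-11).

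Anxa6, which carries a duplicated annexin core and acts in endosome and cholesterol traffic, measured 5.14 and 4.98 in A2, 5.31 and 5.37 in A1, 9.66 and 9.70 in DAC8, 5.17 and 5.46 in DAC2, 5.55 and 5.76 in REF2 and 9.42 and 9.20 in REF1. Outside DAC8 and REF1 it sat close to the background level in every array. DAC8 was higher than DAC2 by 4.37 ± 0.12 (limma adjusted p = 8.13e-10), 20.7-fold, and REF2 stood at -3.65 ± 0.12 from REF1 (limma adjusted p = 2.66e-09). Across the 6 line means Anxa5 and Anxa6 correlated at 0.99 and Anxa2 with both at 0.97 to 0.98, while Anxa1 correlated with the 3 at 0.75 to 0.80. These correlations describe 6 points that share arrays and the same split of profiles.

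Fibroblast markers, given above, moved with these 4 genes across DAC8, DAC2, REF2 and REF1, and so did a measure of RNA quality. The 3′ minus 5′ gap of the actin control was 0.45 to 0.52 in DAC8 against 0.88 in both DAC2 arrays, and 0.94 to 1.05 in REF2 against 0.42 to 0.48 in REF1. Its part in the annexin differences was not tested. The iPS lines had 0.84 to 0.85 in A2 and 0.86 to 0.87 in A1. Of the 8 fibroblast markers 6 were below 5 in A2 and in A1, among them Postn at 3.48 and 3.61 and Tagln at 3.91 and 3.94, while Anxa1 averaged 9.77 and 9.73 there and Fbn1 at 8.76 and 8.73.

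The members high in the lines with an epithelial and pluripotent profile were Anxa7 and Anxa11, which share a long N-terminal tail rich in glycine and proline. Anxa11, which tethers RNA granules to lysosomes and binds the EF-hand proteins Pdcd6 and S100a6, measured 7.96 and 8.16 in A2, 8.09 and 8.06 in A1, 8.91 and 8.87 in DAC8, 10.95 and 10.97 in DAC2, 11.18 and 11.11 in REF2 and 8.73 and 8.88 in REF1. DAC2 and REF2 formed the upper tier and the iPS lines the lowest. DAC8 stood at -2.07 ± 0.08 from DAC2 (limma adjusted p = 7.98e-09), and REF2 was higher than REF1 by 2.34 ± 0.08 (limma adjusted p = 3.67e-09), 5.05-fold.

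Anxa7, also called synexin, which promotes fusion of secretory granules, measured 8.70 and 8.76 in A2, 9.04 and 8.996 in A1, 9.31 and 9.14 in DAC8, 10.40 and 10.41 in DAC2, 11.08 and 11.03 in REF2 and 9.26 and 9.14 in REF1. The ordering was that of Anxa11, with a narrower range. DAC8 stood at -1.17 ± 0.07 from DAC2 (limma adjusted p = 2.15e-07), and REF2 was higher than REF1 by 1.85 ± 0.07 (limma adjusted p = 9.21e-09). Its second probe set, at 5.04 to 7.09, had the same signs, with -0.60 for DAC8 minus DAC2 and 1.44 for REF2 minus REF1 on the log2 scale. With both probe sets averaged, Anxa7, DAC8 minus DAC2, stood at -0.89 and was no longer called. Anxa7 and Anxa11 correlated at 0.97 over the 6 line means, again a description of 6 points.

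Anxa4, found at the membranes of secretory epithelia, varied least among the 8, with line means spanning 1.99 log2 units. It measured 8.43 and 8.51 in A2, 8.73 and 8.75 in A1, 9.57 and 9.55 in DAC8, 9.23 and 9.28 in DAC2, 10.51 and 10.42 in REF2 and 9.50 and 9.40 in REF1. REF2 was alone at the top and the iPS lines lay below all others. REF2 was higher than REF1 by 1.01 ± 0.06 (limma adjusted p = 1.73e-07), a call at the edge of 2-fold that was lost without REF2 replicate 1 (0.97) or REF1 replicate 2 (0.97), in log2 units, and with both probe sets averaged (0.93 for Anxa4, REF2 minus REF1). DAC8 differed from DAC2 by 0.30 ± 0.06 (limma adjusted p = 0.000995), and DAC2 stood at -1.21 ± 0.06 from REF2 (limma adjusted p = 1.59e-06). Its second probe set ran 0.85 higher in REF2 than in REF1 on the log2 scale.

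Across labels, lines of like profile were compared first. For DAC8 minus REF1, 0 of 8 annexins were called, where 1.53% of all genes were (0.727% higher, 0.80% lower), and 2 had an adjusted p under 0.05 below 2-fold, Anxa3 and Anxa5, of 3 at an unadjusted p under 0.05 in limma. For DAC2 minus REF2, 2 of 8 were called lower, Anxa2 and Anxa4, where 4.0% of all genes were called, 1.05% higher and 2.95% lower. All 8 members were lower in DAC2 than in REF2 in value, with a median of -0.65 against 0.00 over all genes. Of them 7 had a limma adjusted p under 0.05, Anxa11 being the exception at -0.18 ± 0.08 (adjusted p = 0.0882). For both comparisons, the shares of all genes by p alone or by direction alone were not computed. The shares of called genes above are no background for those counts, and nothing is read from them. Lines of unlike profile again differed in most members, 2 higher and 4 lower for DAC2 minus REF1 (41.0% of all genes called, 20.1% higher and 20.9% lower) and 4 higher and 2 lower for DAC8 minus REF2 (39.9% called, 19.5% higher and 20.3% lower). These use the same arrays as the comparisons within labels and are not separate evidence.

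Between the iPS lines, A2 minus A1, 0 of 8 annexins were called, where 0.218% of all genes were, 0.0818% higher and 0.136% lower. Anxa5 was lower in A2 by a difference of -0.74 ± 0.06 (limma adjusted p = 0.000349) and Anxa2 by -0.42 ± 0.06 (limma adjusted p = 0.0103). Anxa3 differed by 0.21 ± 0.10 at background level (limma adjusted p = 0.435), and Anxa11 by -0.02 ± 0.08 (limma adjusted p = 0.965). In limma 5 of 8 had an unadjusted p under 0.05. The share of all genes at that p was not computed, so nothing is read from this count.

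With labels taken as given, the iPS arrays were set against the mean of the 4 EF or 4 ES arrays, each of which averages 2 unlike lines, with the line as a random block (correlation 0.965). For iPS minus EF, 1 of 8 annexins was called lower, where 5.05% of genes were called, 3.07% higher and 1.98% lower. For iPS minus ES it was again 1 of 8, where 4.65% of genes were called, 2.98% higher and 1.67% lower. That member was Anxa3, on whose values the family was picked, so nothing is read from these counts. With DAC8 and REF2 left out, the counts were 5 for iPS minus EF, all lower, where 3598 of 11001 genes were called, and 4 for iPS minus ES, 3 of them lower, where 3281 of 11001 genes were called. There the ES label is DAC2 alone and the EF label REF1 alone, and the shares of all genes by direction were not computed. The family was picked on the iPS arrays against the others, so nothing is read from these counts or directions either. For ES minus EF, 0 of 8 were called by limma, none at an unadjusted p under 0.05, and 0% of all genes were called.

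Apart from Anxa3, 3 members had all 4 iPS arrays below all 8 others: Anxa4, Anxa7 and Anxa11. That pattern held for 1598 of 11001 genes tested, about 15%, and the opposite one, all iPS arrays above, for 20.2% of genes and 0 annexins. As the family was chosen on this contrast, the values are a description only. The iPS mean minus the mean of each other line was -1.86 to -0.65 for Anxa4, -2.18 to -0.33 for Anxa7 and -3.07 to -0.74 for Anxa11, in log2 units. Anxa1 took the other course against DAC2 and REF2, where the iPS mean was at least 26.9-fold higher, computed against a level of 5, while it differed by -3.10 from DAC8 and -3.33 from REF1 in log2 units. Anxa2, Anxa5 and Anxa6 in the iPS lines were close to DAC2 and REF2, with differences between -0.57 and 0.85.

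Of the other annexins, Anxa8 and Anxa9 were measured. Anxa8, first described as a vascular anticoagulant, measured 7.35 and 7.48 in A2, 7.17 and 7.25 in A1, 7.24 and 7.07 in DAC8, 4.42 and 4.69 in DAC2, 4.46 and 4.56 in REF2 and 8.25 and 8.02 in REF1. It was thus, like Anxa1, present in the iPS lines and in DAC8 and REF1 and at background in DAC2 and REF2. DAC8 was at least 4.46-fold higher than DAC2 (limma adjusted p = 1.96e-08), and REF2 at least 8.77-fold lower than REF1 (limma adjusted p = 2.27e-09). Anxa9 lay below 5 in all 12 arrays. Anxa10 and Anxa13 were not analysed here.

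Among 9 EF-hand partners of annexins, 5 were called higher and 1 lower in DAC8 minus DAC2, where 20.4% and 19.8% of all genes were. In REF2 minus REF1, 1 was called higher and 5 lower, where 20.7% and 19.6% of all genes were. The median difference of the partners was 1.67 within the ES label and -1.87 within the EF label. S100a4, a calcium sensor of motile and mesenchymal cells, had means of 12.23 in DAC8 against 4.22 in DAC2 and 4.05 in REF2 against 11.86 in REF1, and of 5.04 in A2 and 5.00 in A1, at the background level. DAC8 was at least 151-fold higher than DAC2 (limma adjusted p = 7.78e-12). S100a6, also called calcyclin, stood at 9.46 in A2, 9.58 in A1, 13.27 in DAC8, 5.67 in DAC2, 6.86 in REF2 and 13.16 in REF1. S100a1 ran the other way, with -1.75 ± 0.18 for DAC8 minus DAC2 and 3.09 ± 0.18 for REF2 minus REF1 (limma adjusted p = 1.07e-05 and 1.64e-07). Sri, the calcium sensor sorcin that binds Anxa7, was higher in DAC8 than in DAC2 by 2.73 ± 0.06 (limma adjusted p = 2.49e-10), opposite in sign to Anxa7 itself.

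The main partner of Anxa2, the partner of Anxa1 named S100a11 and the Anxa11 partner Pdcd6 were added after their values were seen. S100a10 had means of 11.68 in A2, 11.69 in A1, 13.02 in DAC8, 10.69 in DAC2, 11.28 in REF2 and 13.25 in REF1, with DAC8 above DAC2 by 2.33 ± 0.06 (limma adjusted p = 4.52e-10). It was highest in the same lines as Anxa2. S100a11 had 8.44 in A2, 8.47 in A1, 13.44 in DAC8, 11.77 in DAC2, 11.45 in REF2 and 13.45 in REF1, so that the iPS lines were lowest. Pdcd6, the partner of Anxa11, differed by -0.01 ± 0.06 for DAC8 minus DAC2 (limma adjusted p = 0.889), and did not follow Anxa11.

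**Figure D4:**
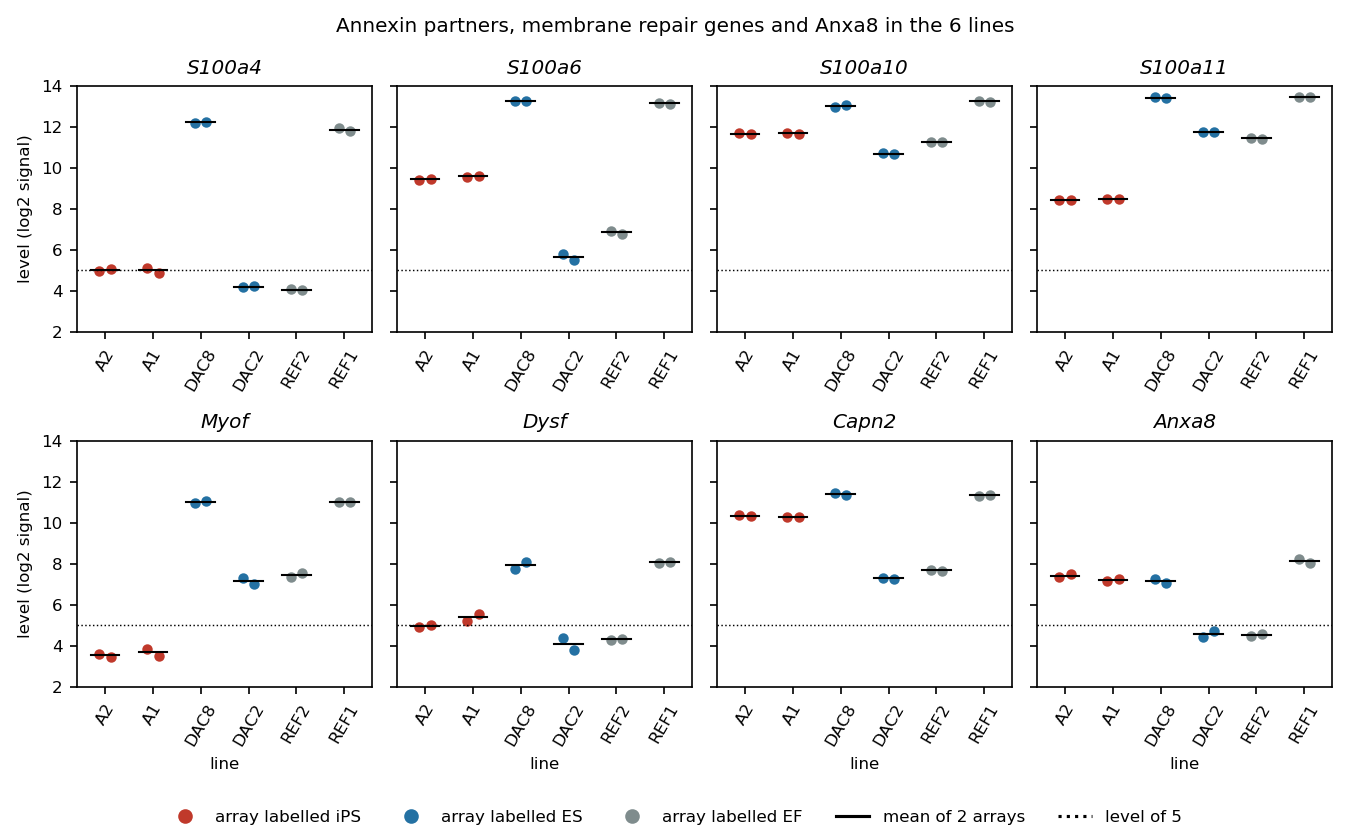
Level (log2 signal, y axis) of 4 S100 partners, 3 membrane repair genes and Anxa8 in the 6 lines (x axis), with a point for each array and a bar for the mean of the 2 arrays. All 8 are higher in DAC8 than in DAC2 and lower in REF2 than in REF1, and Myof lies below the dotted level of 5 only in A2 and A1. The genes shown are a choice from longer lists, in which some members, S100a1 among them, ran the other way. S100a10 and S100a11 were added after their values were seen.

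Among membrane repair genes, Trim72 was too low to test and Ahnak was not analysed here. Of the 9 tested, 4 were called higher and 0 called lower in DAC8 minus DAC2. In REF2 minus REF1, 0 were called higher and 4 called lower. Counted in either direction, these shares are close to the 40.2% and 40.3% of all genes called in the same comparisons. By direction, 20.4% of all genes were called higher in DAC8 minus DAC2 and 19.6% lower in REF2 minus REF1. By sign alone, 7 of these repair genes were higher and 2 lower in DAC8 minus DAC2, and 2 higher and 7 lower in REF2 minus REF1. Those against the rest were Vps4b, at -0.61 and 0.68, and Chmp4b, at -0.80 and 0.78 and close to or under 5. Myof, which encodes the ferlin myoferlin, had means of 3.52 in A2, 3.67 in A1, 10.997 in DAC8, 7.15 in DAC2, 7.45 in REF2 and 11.004 in REF1. Like the leading probe set of Anxa3 it was below 5 in both iPS lines and above in the other 4. Its relative Dysf, dysferlin, was at least 7.59-fold higher in DAC8 than in DAC2 and at least 8.33-fold lower in REF2 than in REF1. Capn2, the large subunit of m-calpain, was higher in DAC8 than in DAC2 by 4.12 ± 0.05 (limma adjusted p = 1.53e-11). Pdcd6ip, or Alix, which links annexin-bound wounds to the ESCRT machinery, was higher by 1.59 ± 0.09 (limma adjusted p = 9.52e-08).

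Of 7 genes that move or expose phosphatidylserine, the lipid annexins bind, 4 were called higher and 1 lower in DAC8 minus DAC2. There 20.4% of all genes were called higher and 19.8% lower. In REF2 minus REF1, 1 was called higher and 4 lower, where 20.7% and 19.6% of all genes were. Ano6, a calcium-activated scramblase, was higher in DAC8 by 3.29 ± 0.09 (limma adjusted p = 1.16e-09) and stood at -3.61 ± 0.09 for REF2 minus REF1 (limma adjusted p = 6.86e-10). Plscr3, of the scramblase family, was at least 6.81-fold higher in DAC8 than in DAC2. Plscr1 of the same family differed by 2.05 ± 0.13 and Tmem30a, a flippase subunit, by 1.90 ± 0.09 (limma adjusted p = 2.98e-07 and 3.05e-08). The called members running the other way were Atp8a1 and Xkr8. Atp8a1 was lower in DAC8 than in DAC2, by at least 1.21-fold against a level of 5. Xkr8 was higher in REF2 than in REF1 by 1.32 ± 0.14 (limma adjusted p = 1.25e-05). All 4 tested genes of the plasminogen system were called higher in DAC8 minus DAC2, as were 20.4% of all genes, and lower in REF2 minus REF1, as were 19.6%, with Plat, tissue plasminogen activator, at -4.26 ± 0.20 for REF2 minus REF1 (limma adjusted p = 4.02e-08). The urokinase receptor gene Plaur was higher in DAC8 by 2.93 ± 0.10 (limma adjusted p = 4.08e-09).

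The genes whose line means followed Anxa3 most closely, among 1814 genes spanning at least 3 log2 units, were Plpp1 (Pearson r = 0.996 over 6 line means), Osbpl3 (0.993), Copz2 (0.992), Kank1 (0.992), Hoxd8 (0.991) and Arhgap10 (0.991). Plpp1, a lipid phosphatase, had 7.15 in A2, 7.19 in A1, 11.03 in DAC8, 9.98 in DAC2, 10.50 in REF2 and 10.95 in REF1. Those nearest to Anxa2 were C8h11orf52 (0.998), Cebpd (0.997), Ncald (0.994), Plod1 (0.993), the integrin gene Itgav (0.992) and Nexn (0.989). Itgav had 7.66 in A2, 7.76 in A1, 10.73 in DAC8, 7.26 in DAC2, 8.17 in REF2 and 10.59 in REF1. With 6 points these values only describe the lines, and ranking by Spearman's correlation named 0 of the same 6 genes for Anxa3 and 2 of 6 for Anxa2.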

How the data were processed

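Total RNA, about 100 ng per array, was amplified and biotin-labelled, per the labels' protocols. The authors deposited log2 values for 31099 probe sets, from 1.45 to 14.12, made with RMA and Partek 6.2 according to the submitters' processing notes. Such summaries compress differences of dim and near-saturated genes, and joint normalization of the 12 arrays is not stated. By the platform's annotation 20832 probe sets had 1 symbol, 436 several and 9831 none. Of 14218 genes, 3217 with no line mean of at least 5 were left out, which left 11001 and all 8 annexins.

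A limma 3.58.1 fit in R 4.3.3 took the 6 lines as levels of 1 factor, with eBayes and p-values adjusted by Benjamini-Hochberg over all 11001 genes. Cell types were compared with the line as a random block. The fits were run on simulated data with known changes. Lines of the same label differed far less there than here, so those runs do not show how the cell-type fit behaves on these lines. The members and gene lists were chosen with earlier results of these data known, so they are not independent of them. All members were named, with up to 4 genes of each list by their largest difference within the ES or EF label, and the 6 genes most correlated with Anxa3 and with Anxa2. S100a10, S100a11, Pdcd6, Pef1, Capn1, Chmp4b, Vps4b, Atp8a1, Atp11a and Xkr8 fell outside this rule, and the formyl peptide receptors were not analysed here. Alternatives were a replicate block, other filters, quantile and median normalization, a trend with intensity, averaged probe sets, line means, no line block, fewer lines and each array left out.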

Additional observations from a re-analysis of the deposited data

How the results depend on the processing

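The number of arrays, 2 per line, limits every value. Of the recomputed counts of called annexins, 197 stayed within 1.5 times of the reported one and 9 did not. For iPS minus EF the count was 2 with no filter, quantile normalization, equal medians, an intensity trend or no line block, against 1 as reported, and 5 with DAC8 and REF2 left out. For iPS minus ES it was 4 and for ES minus EF 6 without them, where only DAC2 and REF1 remain. With the mean of probe sets the count for DAC2 minus REF2 was 1, and the calls of Anxa2 there, of Anxa7 for DAC8 minus DAC2 and DAC2 minus REF1 and of Anxa4 for REF2 minus REF1 were lost, which left 6 called for DAC8 minus DAC2, 6 for REF2 minus REF1 and 5 for DAC2 minus REF1. Leaving out 1 array at a time gave 6 to 7 called annexins for REF2 minus REF1 and for DAC2 minus REF1, 7 for DAC8 minus DAC2, 6 for DAC8 minus REF2, 2 for DAC2 minus REF2, 1 for iPS against EF and ES, and 0 for the rest. Among recomputed differences of single annexins 6 changed sign, and 0 of those had been called. With averaged probe sets the value was -0.005362 for Anxa2, DAC8 minus REF1. With 1 array left out, the range was -0.10 to 0.197 for Anxa1, A2 minus A1, -0.115 to 0.0835 for Anxa11, A2 minus A1, -0.006266 to 0.0732 for Anxa2, DAC8 minus REF1, and -0.0640 to 0.111 for Anxa7, DAC8 minus REF1. Without DAC2 replicate 1 or REF1 replicate 2, Anxa3 passed 2-fold for DAC2 minus REF1, at -1.03 and -1.02. The causes were not tested.

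Over all genes, counts moved by more than 1.5 times for iPS minus EF (556 as reported, 918 with no filter, 278 with line means, 1585 with no line block, 3598 without DAC8 and REF2), for iPS minus ES (512, then 855, 249, 1518 and 3281), for ES minus EF (0, 2 with no line block and 4509 without DAC8 and REF2) and for A2 minus A1 (24, and 11 from these lines alone). Same-numbered arrays share only a number: their deviations correlated at -0.08 to 0.24 between lines, over 0.1 in 3 of 15 pairs. The replicate block left 7 called annexins for DAC8 minus DAC2 and 7 for REF2 minus REF1, and changed no other count of annexins.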
